A study of Mus musculus with 6 samples.

Results

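The 40 genes described here cover sterol and fatty acid metabolism: the enzymes of cholesterol synthesis, the proteins that sense and carry sterols, the enzymes of fatty acid synthesis (lipogenesis) and those of mitochondrial beta-oxidation. They were listed by name and found through the RefSeq accessions of the probes. Of the 40 listed genes, 39 were found among the 45616 features tested, and they carried 62 of the 56605 probes. *Acat2*, the cytosolic thiolase that starts the mevalonate route, had no probe name that matched and was not analysed here. Islet cells of P1 pups (postnatal day 1) of *Wnt4eGFPCre; mTmG* mice, raised from crosses to C57BL/6J, were sorted by flow cytometry into mGFP-positive (*Wnt4*hi) and mGFP-negative (*Wnt4*low) cells, and total RNA was amplified from 500 pg and hybridised to single-color Agilent arrays. There were 3 arrays of *Wnt4*hi (replicates 2, 3 and 4) and 3 of *Wnt4*low (replicates 1, 3 and 4), each from a pool of 3 or 4 pups. The methods name this genotype for both populations, while a legend of the supplement writes the negative one as lacking the *Wnt4eGFPCre* transgene, and the labels give the genotype as Wnt4pos and Wnt4neg, so that a difference in alleles cannot be told apart from the sort. Neither was treated. In this mouse Cre is made where *Wnt4* is transcribed and switches the mTmG reporter from membrane tomato to membrane GFP for good, so that mGFP marks cells that have transcribed *Wnt4* at any time up to P1, and the sort was by fluorescence, not by cell type.

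Cholesterol is built from acetyl-CoA through mevalonate, squalene and lanosterol. The route is switched on by SREBP transcription factors, which SCAP escorts out of the endoplasmic reticulum and which INSIG proteins hold back when sterols are plentiful. Fatty acids are made from malonyl-CoA by fatty acid synthase, then elongated and desaturated, while CPT1 admits fatty acids into mitochondria for oxidation and is itself inhibited by malonyl-CoA. In beta-cells, cholesterol is a component of the insulin granule membrane, and malonyl-CoA rises when glucose is metabolised.

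Between 70.5 and 79.5% of the 59305 spots were well above background on each array, the median intensity was 10.8 to 15.6 times the background, and 0 spots were saturated. Values below are log2 intensities after background correction and quantile normalization, for the probe of each gene with the highest mean. They compare the same probe between arrays, never 1 gene with another. *Wnt4* itself, the check of the sort, read 11.20, 10.53 and 10.77 on *Wnt4*hi arrays 2, 3 and 4 and 9.85, 10.11 and 9.31 on *Wnt4*low arrays 1, 3 and 4. All *Wnt4*hi arrays were above all *Wnt4*low arrays, by 1.08 on the log2 scale (SE 0.27, limma adjusted p = 0.212). Marker genes of cell types also differed between the populations. Beta-cell markers were higher in *Wnt4*hi for 8 of 9 genes (summed intensity 325194 to 334079 against 189930 to 291044 in *Wnt4*low), and all 9 were well above background on every array. Alpha-cell markers were higher for 5 of 5 (58945 to 97883 against 10044 to 54738). Endothelial markers were lower in *Wnt4*hi for 12 of 12 (5721 to 8615 against 41189 to 84625), and so were mesenchymal markers for 9 of 9 (34226 to 66471 against 81723 to 109709). Macrophage markers were lower for 6 of 8 (8454 to 11074 against 11547 to 12692), without overlap, acinar markers for 6 of 7 and erythroid markers for 3 of 4, with overlap, and duct markers for 3 of 5. The endothelial receptor gene *Tie1* was not well above background on any *Wnt4*hi array, and its mean was at least 12.2-fold lower there. In sorted bulk samples, fewer cells of a type and less RNA per cell cannot be told apart, and the part of these markers in the lipid gene values was not tested.

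*Wnt4*hi was higher in 26 of the 39 genes (66.7%) and lower in 13, where 63.5% of all features were higher, so that the tally of directions was close to the background. The median difference was 0.22 on the log2 scale, against 0.07 over all features, and the median size of the difference, without its sign, was 0.41 against 0.19. Among features well above background on all 6 arrays these medians were 0.10 and 0.21. At an adjusted p under 0.05 (limma, Benjamini-Hochberg over all features) 0 of 39 genes were higher and 0 lower, where 0.0351% of all features were higher in *Wnt4*hi and 0.403% lower. The lowest adjusted p among the members was 0.373. At the unadjusted threshold of 0.05 that the study used, 5 genes were higher in *Wnt4*hi, 12.8% of the members against 5.02% of all features. These were *Idi1*, *Sqle*, *Fasn*, *Lpin1* and *Hadhb*. Only *Stard4* was lower, where the background was 5.53%. In either direction 15.4% of the members passed, against 10.5% of all features. The share was 11.9% of features well above background on all 6 arrays and 13.5% of features with a gene symbol. All 3 *Wnt4*hi arrays lay above all *Wnt4*low arrays for 5 genes (*Idi1*, *Fdft1*, *Sqle*, *Fasn* and *Elovl6*; 9.56% of all features did so) and below them for *Stard4* (6.44% of all features). The 95% interval of the difference lay within a 2-fold change in either direction for 17 of 39 genes (43.6%, against 67.1% of all features). For the other members the 3 arrays per group did not exclude a 2-fold difference. All members but 4 were well above background on all 6 arrays: *Nsdhl* and *Scd1* were so on 2 of 3 *Wnt4*hi arrays, *Elovl6* on 2 of 3 *Wnt4*low arrays and *Stard4* on none of the *Wnt4*hi arrays.

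**Figure D1:**
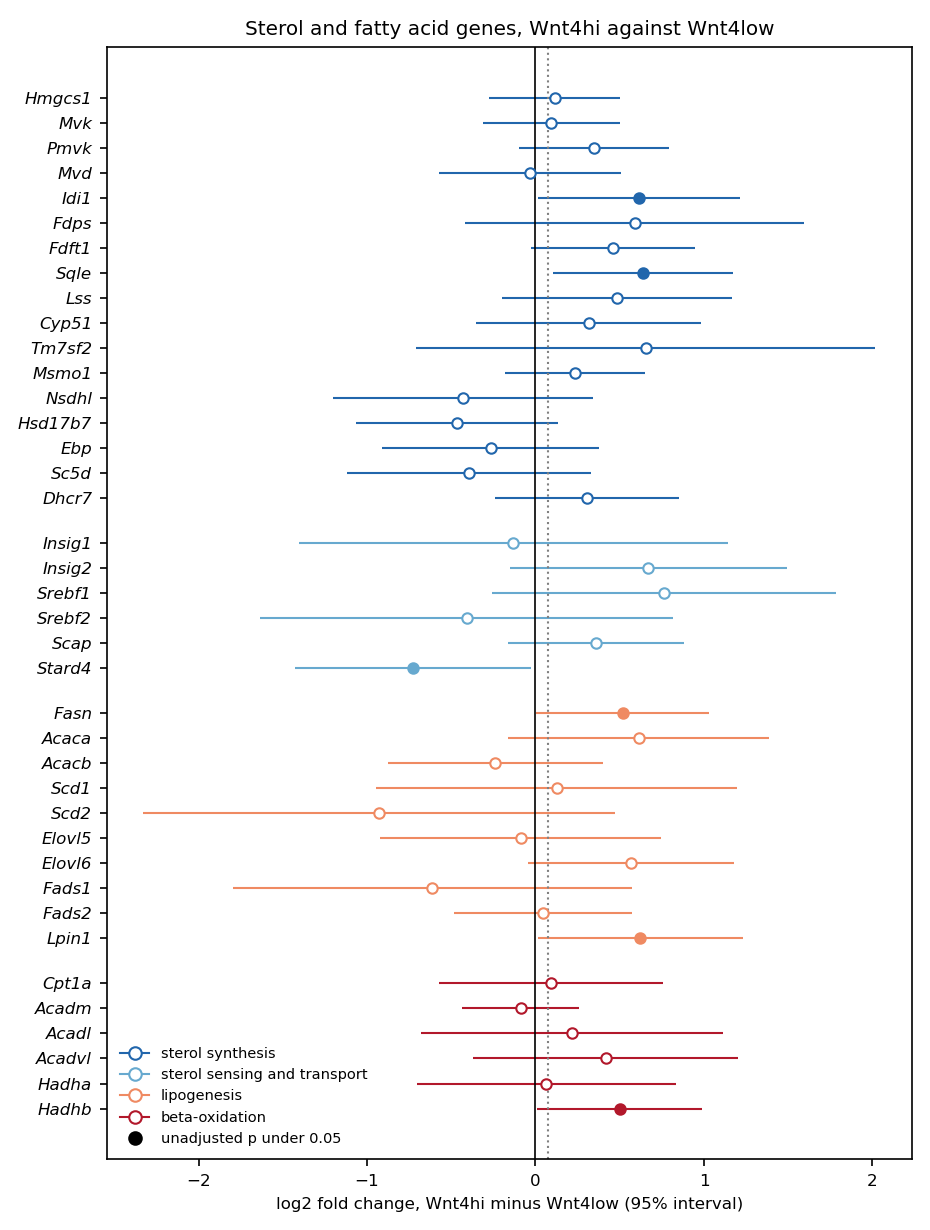
Log2 fold change (*Wnt4*hi minus *Wnt4*low, horizontal axis) of the 39 genes with its 95% interval, 3 arrays per population, grouped by role; filled points have an unadjusted limma p under 0.05 and the dotted line is the median of all features (0.07). Filled points lie at 0.50 to 0.64 for the 5 genes higher in *Wnt4*hi and at -0.73 for *Stard4*, and most intervals cross 0.

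The 17 measured enzymes of sterol synthesis had a median difference of 0.31 on the log2 scale, with 12 higher (70.6%, against 63.5% of all features) and 5 lower in *Wnt4*hi. 2 of the 17 (11.8%) passed the unadjusted threshold, both higher, where 5.02% of all features did, and for 3 all *Wnt4*hi arrays lay above, where 9.56% of all features did. The median deviation of the group from the mean of the 6 arrays was 0.14, 0.15 and 0.12 on *Wnt4*hi arrays 2, 3 and 4 and -0.02, -0.17 and -0.01 on *Wnt4*low arrays 1, 3 and 4. All *Wnt4*hi arrays were above all *Wnt4*low arrays for this group, as they were for the 39 genes together (0.10 to 0.14 against -0.13 to -0.01). The median of all features lay between -0.06 and 0.05 on the same arrays. Leaving out 1 array moved the median of the sterol genes between 0.18 (without *Wnt4*low replicate 1) and 0.39 (without *Wnt4*low replicate 4), always above 0. The median of all features was 0.096 and 0.057 in those fits.

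The route was also described in 2 stretches. The 9 genes up to lanosterol (*Hmgcs1* to *Lss*) were higher in *Wnt4*hi in 8 cases, with a median of 0.46, and the 8 genes from lanosterol to cholesterol were higher in 4 and lower in 4, with a median of -0.02. This division was drawn after the values were seen, so that it has no test and the difference between the stretches supports nothing. Within the first stretch *Hmgcs1*, *Mvk* and *Mvd* were near 0. The largest difference of the 17 enzymes was that of *Tm7sf2* (0.65) in the second stretch, which fell to 0.07 without *Wnt4*hi replicate 2. The first stretch deviated by 0.14 to 0.19 on the *Wnt4*hi arrays and by -0.17 to -0.12 on the *Wnt4*low arrays, and the second by -0.34 to 0.07 and by -0.18 to 0.16. The summed intensities of beta-cell, alpha-cell, endothelial, mesenchymal and macrophage markers also separated the arrays by population, and their part was not tested.

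**Figure D2:**
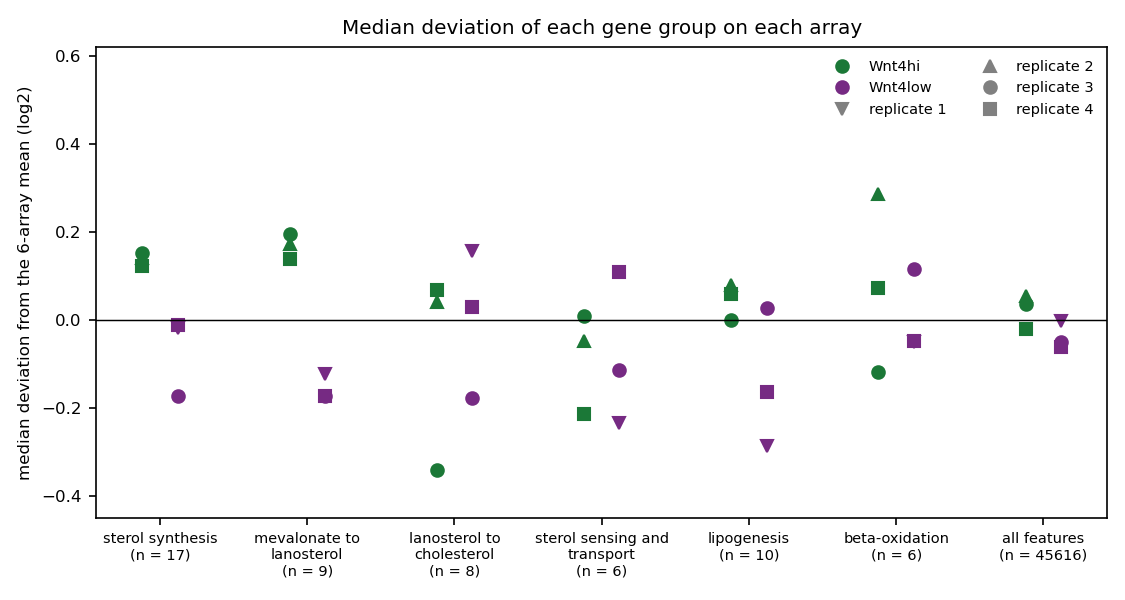
Median deviation of each gene group from the mean of the 6 arrays (log2, vertical axis), for each array; color gives the population, the shape of a point its replicate number, and coincident points overlap. Sterol synthesis has all 3 *Wnt4*hi arrays above all 3 *Wnt4*low arrays, the stretch up to lanosterol was chosen after its values were seen, and the arrays overlap for sensing and transport, lipogenesis and beta-oxidation.

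*Hmgcs1*, the synthase that makes the HMG-CoA from which mevalonate is formed, read 12.05, 12.38 and 12.31 in *Wnt4*hi and 12.07, 12.02 and 12.32 in *Wnt4*low, arrays in the same order. The populations overlapped, and the difference of 0.11 had a 95% interval from -0.27 to 0.50. The kinases that act on mevalonate, *Mvk* and *Pmvk*, differed by 0.09 and 0.35, and the decarboxylase *Mvd* by -0.03, all with overlapping arrays. A dimmer probe gave 0.80 for *Mvk* and 0.09 for *Pmvk*. *Idi1*, the isomerase of the isoprenoid unit, read 12.05, 12.10 and 12.08 in *Wnt4*hi and 11.11, 12.00 and 11.28 in *Wnt4*low. The *Wnt4*hi arrays were close together and all above, with *Wnt4*low replicate 3 just below them, and the difference of 0.61 (SE 0.25) corresponded to 1.53-fold (limma adjusted p = 0.462). Farnesyl diphosphate synthase, *Fdps*, differed by 0.59 with a 95% interval from -0.42 to 1.59, and its highest *Wnt4*low array (replicate 1, 10.74) overlapped the *Wnt4*hi arrays. Without that array its difference was 0.99 and past the unadjusted threshold.

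*Fdft1* encodes squalene synthase, the first enzyme committed to sterols. It read 11.45, 11.28 and 11.93 in *Wnt4*hi and 11.21, 10.99 and 11.08 in *Wnt4*low, without overlap. The difference of 0.46 had a 95% interval from -0.03 to 0.95 and did not pass the unadjusted threshold. *Sqle*, squalene epoxidase, which catalyses a rate-limiting oxidation after squalene, read 11.19, 11.42 and 11.30 in *Wnt4*hi and 10.63, 10.30 and 11.08 in *Wnt4*low. All *Wnt4*hi arrays were above, and the difference of 0.64 (SE 0.22) corresponded to 1.56-fold, with the lowest adjusted p of all members (0.373, limma). A dimmer probe of *Fdft1* gave 0.08. *Lss*, lanosterol synthase, differed by 0.48 with overlapping arrays, by 0.17 without *Wnt4*low replicate 1, and by 0.46 and 0.41 on its other probes, the last past the unadjusted threshold in a fit of single probes. Each of the calls for *Idi1* and *Sqle* depended on single arrays. *Idi1* stayed past the unadjusted threshold only when *Wnt4*low replicate 3 was left out (0.88), with differences from 0.43 to 0.88 over the 6 omissions. *Sqle* stayed past it only without *Wnt4*hi replicate 2 (0.69) or *Wnt4*low replicate 4 (0.84), with differences from 0.45 to 0.84.

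Of the enzymes that turn lanosterol into cholesterol, none passed the unadjusted threshold on the probe used. *Cyp51*, the lanosterol demethylase, read 11.13, 11.66 and 11.05 in *Wnt4*hi and 10.49, 11.30 and 11.11 in *Wnt4*low, with overlap and a difference of 0.32 (95% interval -0.35 to 0.98). The difference was 0.08 without *Wnt4*low replicate 1 and 0.48 without *Wnt4*low replicate 3. *Tm7sf2*, a sterol reductase, differed by 0.65, but its *Wnt4*hi arrays ran from 8.09 to 10.26, and a dimmer probe gave 0.0081. Its difference was 0.07 without *Wnt4*hi replicate 2 and 1.16 without *Wnt4*hi replicate 3. *Msmo1*, the methylsterol oxidase, differed by 0.23 on the probe used and by 0.99, past the unadjusted threshold, on a dimmer probe that was well above background on all 6 arrays. The sterol dehydrogenase *Nsdhl* (-0.43), the ketoreductase *Hsd17b7* (-0.47), the isomerase *Ebp* (-0.27) and the desaturase *Sc5d* (-0.39) were lower in *Wnt4*hi, all with overlapping arrays. Other probes of *Hsd17b7* and *Ebp* gave differences of 0.09 and 0.25, in the opposite direction. *Dhcr7*, which performs the last reduction to cholesterol, differed by 0.31 (95% interval -0.24 to 0.85).

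Promoter sequence was a feature that the listing of the genes had not used. RefSeq promoters (assembly GRCm38.p6, the 250 bases before the annotated start) were held for 33 of the 40 listed genes. The letters CCAAT, the binding motif of NF-Y, were present on either strand in the promoters of 14 of 15 genes of sterol synthesis (93.3%), of 4 of 5 genes of sterol sensing and transport, of 3 of 7 lipogenic genes and of 1 of 6 genes of beta-oxidation (*Cpt1a*), against 37.5% of the 27025 genes with a promoter. The GC box GGGCGG, a motif of Sp factors, was found in 14 of 15 genes of sterol synthesis, 5 of 5 of sensing and transport, 4 of 6 of beta-oxidation and 1 of 7 of lipogenesis, and in 35.4% of all genes. Some genes had several promoters, and a gene counted if any of them matched. Per promoter, CCAAT was in 5 of 10 of sensing and transport and 14 of 18 of sterol synthesis (33.8% of all promoters). The GC box was in 7 of 10 and 15 of 18 (32.7%). The sterol regulatory element TCACNCCAC, the SREBP motif, was found in 1 member, *Hmgcs1*, and in 1.22% of all genes. The E-box CACGTG was found in 6 of 33 members and in 6.86% of all genes, and the direct repeat of PPAR (2 copies of AGGTCA with 1 base between) in 0 members and in 0.0407% of all genes. A match of letters is a description of these windows and says nothing of binding, and a window without a match says only that these letters are absent from it. These 4 promoters stand for an early enzyme of the sterol route, another enzyme of it, the central lipogenic enzyme and an enzyme of beta-oxidation. All but the first belong to genes past the unadjusted threshold, so that this trait of the 4 promoters was fixed by the choice. They are written from 5′ to 3′ in the direction of the gene and end at its start. Capitals mark the sterol regulatory element, the CCAAT letters (ATTGG on the other strand) and the GC box (CCGCCC on the other strand), and in *Fasn* a pair of CCAAT matches overlaps.
Hmgcs1 (chr13:119690101-119690350, plus strand): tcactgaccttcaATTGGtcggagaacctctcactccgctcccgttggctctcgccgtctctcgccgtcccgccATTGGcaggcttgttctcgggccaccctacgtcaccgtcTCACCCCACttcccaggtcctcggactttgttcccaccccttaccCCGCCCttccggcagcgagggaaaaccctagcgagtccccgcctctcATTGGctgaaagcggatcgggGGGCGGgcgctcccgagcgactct
Idi1 (chr13:8885356-8885605, plus strand): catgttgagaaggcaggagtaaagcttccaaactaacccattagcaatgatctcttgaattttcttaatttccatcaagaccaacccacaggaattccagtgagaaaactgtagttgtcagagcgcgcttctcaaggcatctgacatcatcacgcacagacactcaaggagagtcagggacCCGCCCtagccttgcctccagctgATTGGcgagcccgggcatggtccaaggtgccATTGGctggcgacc
Fasn (chr11:120824548-120824797, minus strand): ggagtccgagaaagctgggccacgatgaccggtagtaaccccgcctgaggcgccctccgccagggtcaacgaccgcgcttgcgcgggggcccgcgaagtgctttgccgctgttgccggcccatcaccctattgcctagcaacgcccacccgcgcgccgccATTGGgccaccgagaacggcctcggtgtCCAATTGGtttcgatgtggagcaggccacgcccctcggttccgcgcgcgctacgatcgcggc
Hadhb (chr5:30155003-30155252, plus strand): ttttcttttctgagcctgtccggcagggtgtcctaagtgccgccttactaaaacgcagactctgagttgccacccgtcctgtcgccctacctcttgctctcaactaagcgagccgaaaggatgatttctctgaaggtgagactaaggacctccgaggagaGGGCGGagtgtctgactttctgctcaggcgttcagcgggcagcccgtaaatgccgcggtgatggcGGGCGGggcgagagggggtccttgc

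*Hmgcs1* holds 3 CCAAT boxes, 2 GC boxes and the sterol regulatory element in these bases, and its values overlapped between the populations. *Idi1* holds 2 CCAAT boxes and 1 GC box, *Fasn* 3 CCAAT boxes, and *Hadhb* 2 GC boxes and none of the other motifs. All 3 of these genes were higher in *Wnt4*hi at the unadjusted threshold, which follows from the choice of promoters and is not a result. *Lpin1*, also past that threshold, held none of the searched motifs, and *Sqle* and *Stard4* had no promoter sequence to search.

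The 6 genes of sterol sensing and transport were split, with 3 higher and 3 lower in *Wnt4*hi and a median difference of 0.11, whose sign turned without *Wnt4*hi replicate 3 (-0.12) and which reached 0.36 without *Wnt4*hi replicate 4. *Srebf2*, the SREBP of the sterol route, read 8.54, 9.56 and 10.42 in *Wnt4*hi and 9.69, 9.59 and 10.47 in *Wnt4*low. *Wnt4*hi replicate 2 was the lowest of the 6 arrays, and the difference of -0.41 had a 95% interval from -1.63 to 0.82. It turned to 0.07 without that array and was -0.86 without *Wnt4*hi replicate 4. *Srebf1*, the SREBP of lipogenesis, read 11.19, 10.06 and 9.58 in *Wnt4*hi and 9.52, 9.79 and 9.23 in *Wnt4*low. *Wnt4*hi replicate 2 was here the highest array, and the difference was 0.76 (95% interval -0.26 to 1.78) with it and 0.31 without it, and 1.11, past the unadjusted threshold, without *Wnt4*hi replicate 4. The escort *Scap* differed by 0.36 and *Insig2*, one of the retention proteins, by 0.67 on the brightest probe, while the dimmest of its probes gave -0.57, and the arrays overlapped for both genes. Both passed the unadjusted threshold when 1 array was left out, *Scap* without *Wnt4*hi replicate 4 (0.55) and *Insig2* without *Wnt4*hi replicate 3 (0.92) or *Wnt4*low replicate 4 (0.94).

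*Insig1*, the other retention protein and itself a target of SREBP, read 8.40, 9.98 and 8.25 in *Wnt4*hi and 8.87, 9.60 and 8.56 in *Wnt4*low. Replicate 3 was the highest array in both populations, and the difference was -0.13 (95% interval -1.41 to 1.14). It was -0.69 without *Wnt4*hi replicate 3 and turned to 0.18 without *Wnt4*hi replicate 4. *Stard4*, a soluble carrier of sterols, was the only member past the unadjusted threshold in the other direction. It read 7.32, 7.13 and 7.42 in *Wnt4*hi and 7.47, 8.57 and 8.01 in *Wnt4*low, and all *Wnt4*hi arrays were below. The probe stood well above background in *Wnt4*low (3 of 3 arrays) but in *Wnt4*hi did not (0 of 3), so that the *Wnt4*hi mean was at least 1.55-fold lower. This bound compares means and leaves out the spread between arrays. The fitted difference was -0.73 (SE 0.29, 95% interval -1.43 to -0.027, limma adjusted p = 0.453). A second probe gave -0.89. The call was lost without *Wnt4*hi replicate 3 (-0.64) or *Wnt4*hi replicate 4 (-0.80). Endothelial and mesenchymal markers were lower on the same arrays, and their part in the value of *Stard4* was not tested.

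**Figure D3:**
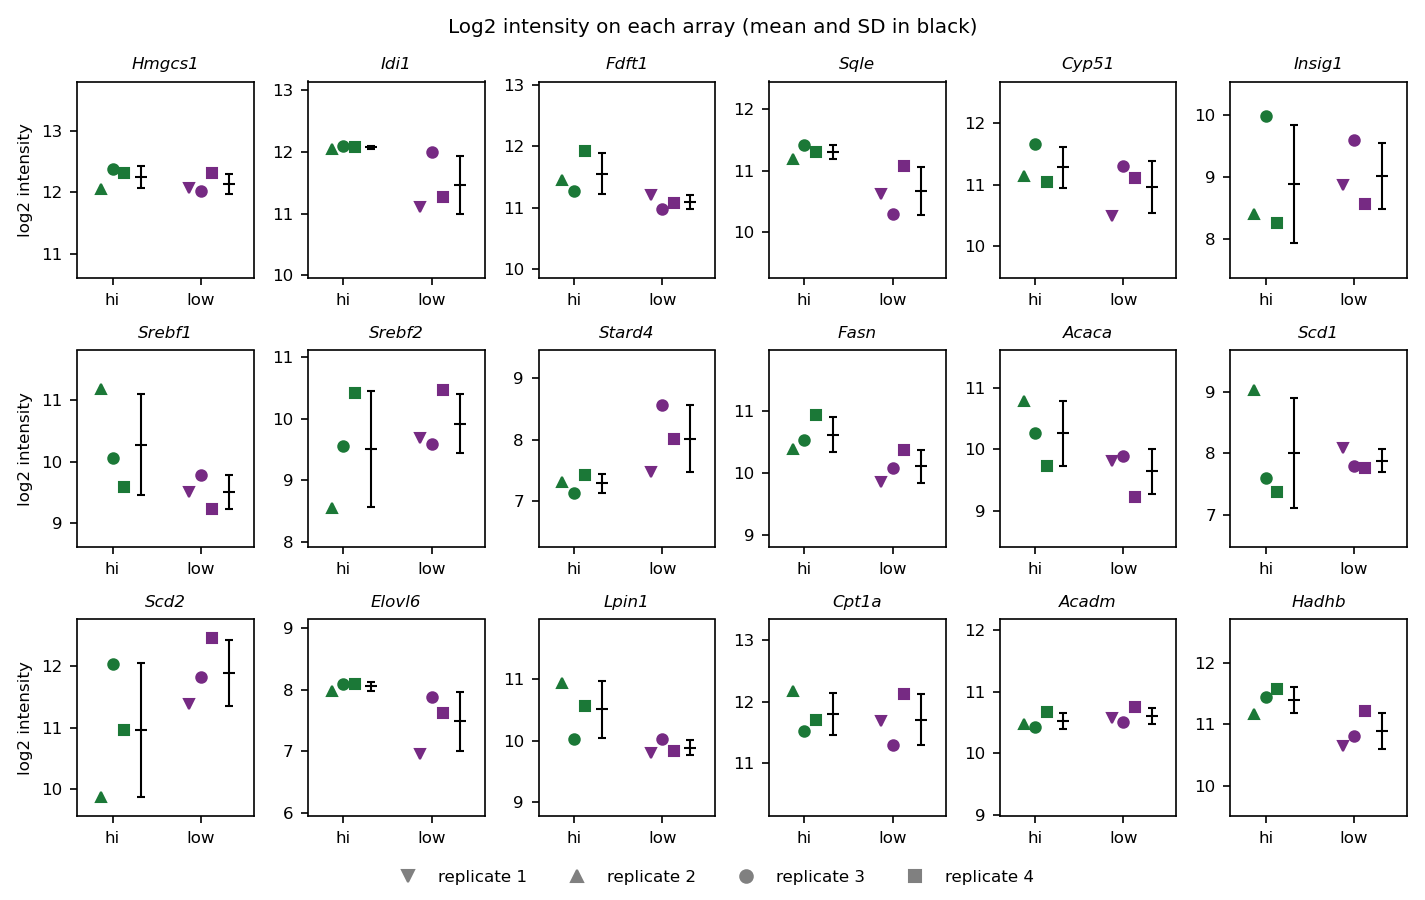
Log2 intensity (vertical axis, the same span in every panel) of 18 genes on each of the 3 *Wnt4*hi (green, hi) and 3 *Wnt4*low (purple, low) arrays; the shape of a point gives its replicate number, and the black bar the mean and SD of the 3 arrays. *Idi1*, *Fdft1*, *Sqle*, *Fasn* and *Elovl6* have all *Wnt4*hi points above all *Wnt4*low points, *Stard4* has all below, and the other 12 panels overlap.

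Among the 10 lipogenic genes, 6 were higher and 4 lower in *Wnt4*hi (60% higher, against 63.5% of all features), with a median of 0.09, which is close to the median of all features and was -0.016 without *Wnt4*hi replicate 2 and 0.25 without *Wnt4*hi replicate 3. 2 of the 10 passed the unadjusted threshold, *Fasn* and *Lpin1*, both higher, where 5.02% of all features did. *Fasn*, fatty acid synthase, read 10.39, 10.54 and 10.94 in *Wnt4*hi and 9.86, 10.08 and 10.38 in *Wnt4*low. The highest *Wnt4*low array lay just below the lowest *Wnt4*hi array, and the difference of 0.52 (SE 0.21) corresponded to 1.43-fold (limma adjusted p = 0.471). In the limma fit of single probes, from which the values of other probes come, *Fasn* missed the threshold (unadjusted p = 0.0514). The call held without *Wnt4*hi replicate 2 (0.63) or *Wnt4*low replicate 4 (0.65) and was lost without any other array, with differences from 0.36 to 0.65. *Acaca*, the carboxylase that makes malonyl-CoA for synthesis, read 10.78, 10.26 and 9.73 in *Wnt4*hi and 9.81, 9.90 and 9.23 in *Wnt4*low. The arrays overlapped, and the difference of 0.61 had a 95% interval from -0.16 to 1.39. It was 0.35 without *Wnt4*hi replicate 2 and 0.87, past the unadjusted threshold, without *Wnt4*hi replicate 4. Dimmer probes of *Acaca* gave 0.39 and, past the threshold in a fit of single probes, 1.18, with 5 and 4 of 6 arrays well above background, and another (0.63) had 1 of 6. *Acacb*, the carboxylase at the mitochondrial surface, differed by -0.24.

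*Scd1* and *Scd2*, the stearoyl-CoA desaturases that make monounsaturated fatty acids, are close paralogues, and probes may share signal between them. *Scd1* read 9.03, 7.61 and 7.38 in *Wnt4*hi and 8.09, 7.79 and 7.76 in *Wnt4*low. *Wnt4*hi held both the highest and the lowest arrays, and the difference was 0.13 (95% interval -0.95 to 1.20). It turned to -0.39 without *Wnt4*hi replicate 2 and was 0.44 without *Wnt4*hi replicate 4. *Scd2* read 9.87, 12.04 and 10.97 in *Wnt4*hi and 11.38, 11.83 and 12.45 in *Wnt4*low. Its *Wnt4*hi arrays spread widely, and the difference of -0.93 had a 95% interval from -2.33 to 0.47. It was -0.38 without *Wnt4*hi replicate 2 and -1.48, past the unadjusted threshold, without *Wnt4*hi replicate 3.

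*Elovl6*, which elongates saturated and monounsaturated fatty acids, read 7.97, 8.10 and 8.09 in *Wnt4*hi and 6.96, 7.88 and 7.63 in *Wnt4*low. All *Wnt4*hi arrays were above, but the difference of 0.57 (95% interval -0.05 to 1.18) did not pass the unadjusted threshold, and it was 0.30 without *Wnt4*low replicate 1 and 0.76, past the threshold, without *Wnt4*low replicate 3. *Lpin1*, a phosphatidate phosphatase that yields diacylglycerol, read 10.94, 10.02 and 10.56 in *Wnt4*hi and 9.80, 10.03 and 9.84 in *Wnt4*low. *Wnt4*hi replicate 3 and *Wnt4*low replicate 3 were level, so that the arrays overlapped although the difference of 0.62 (SE 0.25) passed the unadjusted threshold (limma adjusted p = 0.461). Dimmer probes gave 0.63 and 0.09. The call held when *Wnt4*hi replicate 3 was left out (0.87) and was lost without any other array, with differences from 0.40 to 0.87. The elongase of polyunsaturated fatty acids *Elovl5* (-0.09) and the desaturases *Fads1* (-0.61) and *Fads2* (0.04) overlapped. *Fads1* gave 0.20 on a dimmer probe, and -1.07, past the unadjusted threshold, without *Wnt4*low replicate 1.

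Beta-oxidation had 5 of 6 genes higher in *Wnt4*hi (63.5% of all features were), 1 of them (*Hadhb*) past the unadjusted threshold (16.7%, against 5.02% of all features higher), but for none did the arrays separate, and the median of 0.15 turned to -0.08 without *Wnt4*hi replicate 2 and reached 0.32 without *Wnt4*low replicate 3. *Cpt1a*, the carnitine transferase that admits fatty acids into mitochondria, read 12.18, 11.52 and 11.70 in *Wnt4*hi and 11.69, 11.31 and 12.13 in *Wnt4*low. The difference was 0.09 (95% interval -0.57 to 0.76). *Acadm*, the dehydrogenase of medium-chain acyl-CoA, read 10.47, 10.42 and 10.67 in *Wnt4*hi and 10.58, 10.50 and 10.75 in *Wnt4*low. It had the narrowest interval of the 6 genes, with a difference of -0.09 (95% interval -0.43 to 0.26). The dehydrogenases of longer chains *Acadl* and *Acadvl* differed by 0.22 and 0.42 with overlap. When 1 array was left out, *Acadl* ran from -0.15 to 0.48 and *Acadvl* from 0.06 to 0.69.

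*Hadha* and *Hadhb* encode the alpha and beta subunits of the mitochondrial trifunctional protein, which performs the last steps of each oxidation cycle on long chains. *Hadhb* read 11.17, 11.45 and 11.57 in *Wnt4*hi and 10.65, 10.81 and 11.22 in *Wnt4*low. *Wnt4*low replicate 4 lay above *Wnt4*hi replicate 2, and the difference of 0.50 (SE 0.20, 1.41-fold) passed the unadjusted threshold (limma adjusted p = 0.463). Another probe gave 1.01. The call held without *Wnt4*hi replicate 2 (0.61) or *Wnt4*low replicate 4 (0.66) and was lost without any other array, with differences from 0.38 to 0.66. *Hadha* differed by 0.06 (95% interval -0.71 to 0.83), and the contrast between the subunits was not tested.

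The 3 branches were also compared through genes of the same pathways outside the 40. Further enzymes of sterol synthesis were higher in 6 of 8 cases (median 0.24; 63.5% of all features were higher), 0 passed the unadjusted threshold, and their median deviation overlapped between *Wnt4*hi (-0.12 to 0.12) and *Wnt4*low (-0.17 to 0.05) arrays. Of 20 genes of sterol uptake, efflux and storage, 1 (5%) passed it, the lipoprotein receptor *Lrp8*, higher by 0.87, where 5.02% of all features were higher at this threshold and 5.53% lower. The 29 further lipogenic genes (median 0.10) deviated by 0.01 to 0.10 on the *Wnt4*hi and by -0.18 to -0.03 on the *Wnt4*low arrays, without overlap. Of these genes, 3 (10.3%) were higher at that threshold, against the same 5.02%, the citrate lyase *Acly* (0.79), the elongase *Elovl2* (0.87) and the glucose-responsive factor *Mlxipl* (0.65). 2 of the 29 were lower, against 5.53%, *Elovl4* (-1.40, limma adjusted p = 0.068) and *Fads3* (-1.47, limma adjusted p = 0.0426), the latter well above background on 1 of 3 *Wnt4*hi arrays and with an adjusted p of 0.0713 to 0.152 when any 1 array was left out.

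Of 23 genes of glycerolipid and fatty acid handling (median -0.06), 5 were lower in *Wnt4*hi and 2 higher at the unadjusted threshold, which 5.53% and 5.02% of all features passed. The fatty acid-binding protein gene *Fabp4* read 8.42, 8.04 and 7.64 in *Wnt4*hi and 12.90, 12.81 and 12.58 in *Wnt4*low, a difference of -4.73 (limma adjusted p = 0.0136, and 0.0449 to 0.110 when 1 array was left out), and was well above background on 2 of 3 *Wnt4*hi arrays. *Cd36*, a fatty acid translocase (-2.24), *Slc27a3* (-1.37), the lipid droplet protein gene *Plin2* (-1.06) and *Fabp5* (-0.79) were also lower, *Cd36* and *Slc27a3* with 1 of 3 *Wnt4*hi arrays well above background, and the phosphatidate phosphatase *Lpin2* (1.00) and *Fabp3* (0.65) higher. *Fabp4* and *Cd36* are known from capillary endothelium as well as from adipocytes. Endothelial markers were lower in *Wnt4*hi for 12 of 12 genes, with a median of -3.63, whereas adipocyte markers were higher for 5 of 5 with a median of 0.17, and 0 of them passed the unadjusted threshold; the part of either in these values was not tested. Among 26 further genes of beta-oxidation (median 0.10), the second carnitine transferase *Cpt2* (1.40, limma adjusted p = 0.0600) and the ketone enzyme *Bdh1* (1.78; in *Wnt4*low only 1 of 3 arrays was well above background) were higher and the thiolase *Acaa2* was lower (-1.52). These 3 of 26 (11.5%) stand beside 10.5% of all features past the threshold in either direction. Of 8 regulators of fatty acid oxidation, *Rxra* (-0.45) alone passed (12.5%), near the same share.

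**Figure D4:**
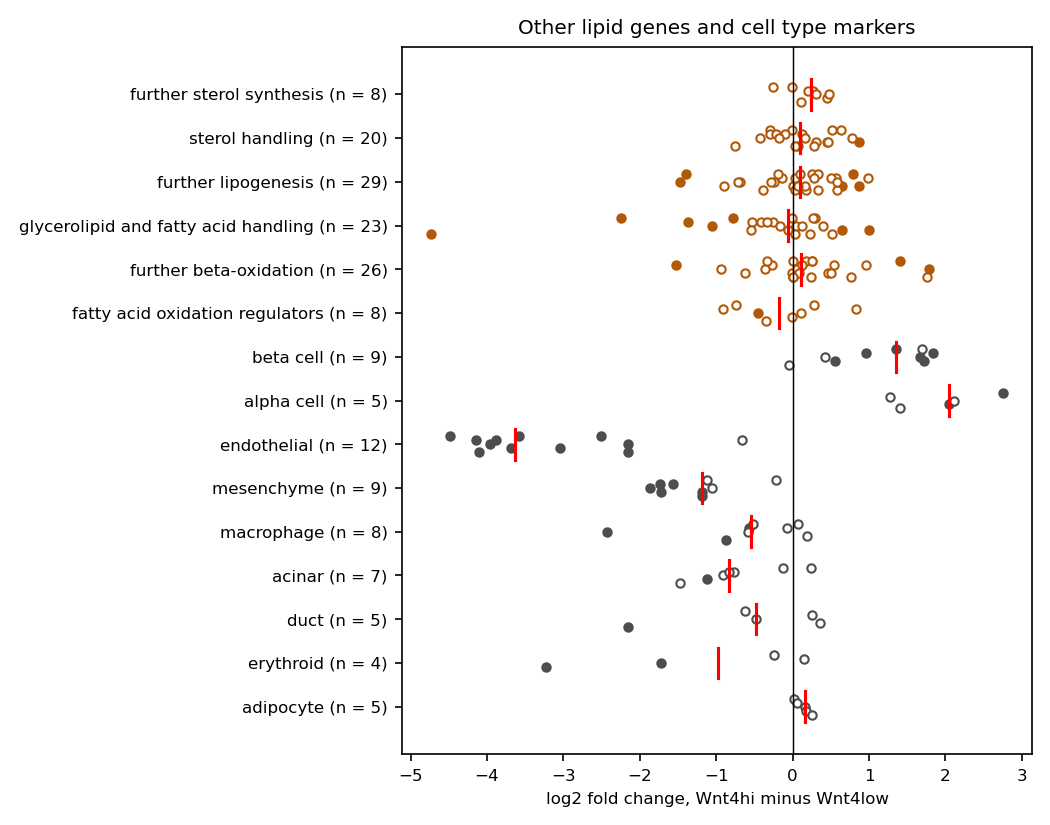
Log2 fold change (*Wnt4*hi minus *Wnt4*low, horizontal axis) of lipid genes outside the 40 (brown) and of cell type markers (grey), 1 point per gene; filled points have an unadjusted limma p under 0.05, red bars are list medians and the vertical offset of points has no meaning. The lists of lipid genes center between -0.18 and 0.24, the endothelial markers at -3.63 and the beta-cell markers at 1.35.

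Single arrays set many of the extreme values. *Wnt4*low replicate 1 was the lowest of the 6 arrays for 12 of 39 members (8356 of 45616 features) and *Wnt4*hi replicate 2 the highest for 11 (11187 of all features). *Wnt4*hi replicate 3 was the highest for 10 and the lowest for 6. Counting both ends, it was extreme for 41% of the members (27.3% of all features). The share was 41% for *Wnt4*low replicate 1 (35.9%) and 33.3% for *Wnt4*hi replicate 2, below its 37.6% of all features. *Wnt4*low replicate 1 also had the lowest alpha-cell and beta-cell marker intensities (10044 and 189930) and the highest endothelial one (84625) of the 6 arrays. Without it, 1 member was higher at the unadjusted threshold (*Fdps*, 0.99) and 2 lower (*Stard4*, -0.99, and *Fads1*, -1.07). The number of members higher at this threshold was 3 without *Wnt4*hi replicate 2, 3 or 4, 1 without *Wnt4*low replicate 1, 2 without *Wnt4*low replicate 3 and 5 without *Wnt4*low replicate 4. In the same fits 1594 (without *Wnt4*low replicate 1) to 2423 of the 45616 features were higher. Members outside the 6 that passed when 1 array was left out, beside those given above, were *Fdft1* (0.60 without *Wnt4*hi replicate 3), *Pmvk* (0.53) and *Acacb* (-0.52), both without *Wnt4*low replicate 4, and *Nsdhl* (-0.72) and *Hsd17b7* (-0.65), both without *Wnt4*low replicate 3. The part of cell composition in these changes was not tested.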

How the data were processed

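RNA of 6 pools of sorted P1 islet cells was measured on 1-color Agilent arrays (Cy5), all on 1 slide from 1 scan. The authors deposited scanner output with the intensity of each spot and its local background, not normalized (the labels name Feature Extraction 9.1, the file headers 12.0.1.1), a software-processed intensity, and a table of normalized log2 values, used as an alternative only.

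After the study's methods, median intensities were corrected with normexp (offset 50), quantile normalized and fitted with limma 3.58.1 (R 4.3.3; lmFit, eBayes, no covariates) over 45616 features, with Benjamini-Hochberg adjustment. Outlier spots (50 to 141 per array) were left out, spots of a probe averaged, and the probe with the highest mean stood for a gene. Of 27845 RefSeq-type names, 25126 matched the GRCm38.p6 gene table, used for names because the array design is older. Bounds used, per dim array, the higher of its value and the lowest signal well above background, and compare means without the spread between arrays. Named were all members past the unadjusted threshold of 0.05 or without overlap and a set of key genes whatever their values, with values on every array, and, of other lists, genes past that threshold without overlap. Summed intensities are on the linear scale. The members and lists were chosen with earlier results of these data known. The labels do not say that replicates come from separate litters, and p-values measure only the spread between these pools. Precision is limited by the number of arrays. The fit was tested on simulated data, and 19 alternatives were run.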

Additional observations from a re-analysis of the deposited data

How the results depend on the processing

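Limits are the 3 arrays per population, cell type markers that differ between the populations, the choice of probe (in 5 of 18 members with several probes another probe had the opposite sign) and the dim probe of *Stard4*. 0 members passed the adjusted threshold in any of the 19 alternatives. The 6 members past the unadjusted threshold kept their sign in all alternatives that held them, and past it were *Stard4* in 16 of 19, *Sqle* in 12 of 18, *Lpin1* in 9, *Fasn* and *Hadhb* in 8 and *Idi1* in 6 of 19. Of the 33 others, 15 passed in at least 1 alternative and 10 turned sign in at least 1. The 5 members higher in *Wnt4*hi became 2 without background subtraction, 2 with an offset of 16, 1 with cyclic loess, 3 with only probes well above background, 1 with trend and robust estimation, 7 with the mean of all probes of a gene, and 1 to 5 without 1 array. The 1 lower member became 0 with median centring and 0 to 3 without 1 array. The median of sterol synthesis was 0.24 with cyclic loess and 0.18 to 0.39 without 1 array, and was the only 1 of the 4 medians above 0 in every alternative. The median of all features was also above 0 in every alternative, from 0.029 to 0.097. Without 1 array the medians ran from -0.12 to 0.36 for sensing and transport, from -0.016 to 0.25 for lipogenesis and from -0.082 to 0.32 for beta-oxidation. In the authors' table, which held 31 members, they were 0.28 for sensing and transport and -0.077 for beta-oxidation; its column for *Wnt4*hi replicate 2 correlated best with the array of *Wnt4*hi replicate 3.

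When replicate numbers entered as a fixed block, 1 member was higher, 2 lower, and the medians of sterol synthesis, lipogenesis and beta-oxidation were 0.18, -0.12 and -0.095. Numbers 1 and 2 each occur in 1 population, so that these differences come from arrays 3 and 4. The fit with only arrays 3 and 4, given below, is therefore not a separate check. The numbers 3 and 4 are shared between the populations, but the labels do not say that they pair pools (correlation of deviations -0.03 for number 3 and 0.16 for number 4). An alternative chosen after seeing the data kept only arrays 3 and 4 of each population: 1 member was higher and 1 lower, and the same medians were 0.15, -0.12 and -0.093. Over all features, 16 higher and 184 lower at the adjusted threshold became 77 and 428 with only probes well above background, 58 and 348 in the authors' table, 0 and 0 with the fixed block, and 0 higher and 0 to 5 lower without 1 array. The adjusted p then ran from 0.0449 to 0.110 for *Fabp4* and from 0.0713 to 0.152 for *Fads3*, with differences of -4.92 to -4.54 and -1.59 to -1.35. Both also missed that threshold in the authors' table (*Fabp4* -3.61, adjusted p = 0.103; *Fads3* -0.87, adjusted p = 0.242), with the fixed block (0.0580 and 0.0972) and with arrays 3 and 4 only (0.0957 and 0.102), and the mean of all probes gave -3.13 for *Fabp4*. The causes were not tested.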
